A study of Mus musculus with 8 samples.

Results

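Genes of DNA replication and cell division were followed in mouse lymph node (LN) RNA. The list held 46 genes, 18 that act mainly in S phase and 28 that act mainly in G2 and mitosis. A gene was measured through the probe sets annotated to it alone, and the one with the highest mean over the 8 arrays stood for it. By this rule 45 of the 46 genes could be followed, 18 of S phase and 27 of mitosis, among 12393 genes on the array. Ccnb1, a mitotic cyclin, has no probe set of its own in the annotation used and is not analysed here. The choice of genes used no measured value of these arrays, but it was made with earlier results of the same arrays known.

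Each array held pooled RNA of 3 mice or more, 8 weeks old. The study used mice of both sexes, and their split over the pools is not given here. WT mice were C57BL/6, and H3RKO mice carried the Hrh3tm1Twl allele on the C57BL/6 background and lacked the histamine H3 receptor in the whole body. Untreated WT and untreated H3RKO LN were measured on 2 arrays each, and each genotype on 1 array after CFA and on 1 array after CFA with PTX (CFA+PTX). CFA, complete Freund's adjuvant, is killed mycobacteria in oil, and PTX is pertussis toxin. Injected mice were taken on the day after injection. In the labels, the titles of the last arrays mention PTX and not CFA, while their descriptions mention both. Which LN was taken for the arrays is not given in the sources used here, and no group of untreated mice received a carrier injection. The study asked how H3R shapes the LN response to these adjuvants.

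A cell that enters the cycle first loads the MCM helicase on replication origins, then copies its DNA with polymerases that the clamp PCNA holds on the template, and needs a fresh supply of deoxynucleotides. After G2, cyclin B with CDK1 starts mitosis, kinases of the Aurora and Polo families build the spindle, and the anaphase-promoting complex ends mitosis by marking cyclins for destruction. E2F factors drive many S phase genes, while mitotic genes are often repressed in resting cells through CHR elements that lie near CCAAT boxes. In LN, dividing cells are mostly activated lymphocytes, and most lymphocytes rest.

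The promoters of the 2 classes differed in the letters they hold. RefSeq promoter windows, each 300 bases long, were found for 40 of the 46 genes. E2F type letters (TTTCCCGC, TTTGGCGC, TTTCGCGC or TTTGCCGC, read on both strands) were present in 6 of 16 S phase windows (37.5%) and in 1 of 24 mitosis windows (4.17%), that of Cdk1, against 3.57% of the windows of genes on the array and 2.26% of all windows. CHR letters (TTTGAA or TTTAAA, both strands) were present in 19 of 24 mitosis windows (79.2%) and 6 of 16 S phase windows (37.5%), against 21.0% of the windows of array genes and 27.6% of all windows. CCAAT, on either strand, was present in 87.5% of mitosis windows, 62.5% of S phase windows, 38.1% of those of array genes and 37.4% of all. These shares describe letters only. The 180 bases before the start of 4 genes are shown because each of these genes was lower in all 4 injected arrays than in all 4 untreated arrays, and because between them they show E2F type letters alone, E2F type letters with CCAAT, CHR letters with CCAAT, and all of these together. Rrm1, Rrm2, Pcna, Aurka and Prc1 were also lower in all injected arrays. Of these letters, their 180 bases before the start hold whole matches of CCAAT alone. Capitals mark the E2F type, CHR and CCAAT letters, on either strand, and 2 E2F type matches of Mcm6 overlap.
Cdc6 (GRCm38.p6, chr11:98907971-98908150, + strand): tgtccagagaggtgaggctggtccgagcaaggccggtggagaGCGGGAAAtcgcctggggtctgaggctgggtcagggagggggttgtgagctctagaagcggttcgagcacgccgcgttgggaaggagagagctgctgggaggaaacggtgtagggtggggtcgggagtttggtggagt
Mcm6 (GRCm38.p6, chr1:128359706-128359885, - strand): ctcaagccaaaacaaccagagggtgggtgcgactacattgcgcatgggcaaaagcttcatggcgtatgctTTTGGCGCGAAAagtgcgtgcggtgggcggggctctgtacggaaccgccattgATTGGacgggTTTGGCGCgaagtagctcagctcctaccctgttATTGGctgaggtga
Kif11 (GRCm38.p6, chr19:37376202-37376381, + strand): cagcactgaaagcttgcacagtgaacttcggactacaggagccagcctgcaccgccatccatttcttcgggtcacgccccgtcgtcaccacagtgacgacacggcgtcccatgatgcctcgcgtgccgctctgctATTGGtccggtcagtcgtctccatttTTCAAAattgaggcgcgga
Cdk1 (GRCm38.p6, chr10:69352913-69353092, - strand): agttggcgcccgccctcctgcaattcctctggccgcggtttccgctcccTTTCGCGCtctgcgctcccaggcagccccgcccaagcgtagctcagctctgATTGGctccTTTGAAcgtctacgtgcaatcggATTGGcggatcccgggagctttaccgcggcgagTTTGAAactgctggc

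The B cell gene Cd79a and the T cell gene Cd3e were bright in all arrays, while Pax5, also of the B cell list, was dimmer (6.31 to 6.59). Cd79a, a chain of the B cell receptor complex, had a log2 signal of 12.51 to 12.81, and Cd3e, of the T cell receptor complex, 10.29 to 10.61. Hrh3 itself had a higher log2 signal in the 4 arrays labelled H3RKO (7.24 ± 0.04, SD, n = 4) than in the 4 labelled WT (6.62 ± 0.05, SD, n = 4). Where its probe set lies relative to the deleted part is not given in the sources used here, so this signal checks no label, and every genotype difference below is that of the arrays as labelled. All values are log2 signals after RMA, which sets all arrays to 1 distribution. In whole LN, fewer dividing cells and less of an mRNA per cell cannot be told apart.

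Of the 18 S phase genes, 9 act at replication origins. Cdc6, which loads the helicase, had a log2 signal of 6.97 and 7.25 in the WT untreated arrays and 6.90 and 6.84 in the H3RKO untreated arrays, 6.60 in WT CFA, 6.67 in H3RKO CFA, 6.69 in WT CFA+PTX and 6.56 in H3RKO CFA+PTX. The injected arrays lay below the untreated ones without overlap. Mcm6, a subunit of the helicase, ran from 10.66 to 10.88 untreated and from 10.54 to 10.65 injected, also without overlap. Mcm5, another subunit, had 9.29 and 9.74 in WT untreated, 9.55 and 9.42 in H3RKO untreated, 9.22 and 9.39 after CFA in WT and H3RKO, and 9.16 and 9.27 after CFA+PTX. Here the groups overlapped, since WT untreated replicate 1 lay below the H3RKO CFA array. Mcm2 varied by only 0.28, with 10.65 and 10.68 in WT untreated, 10.48 and 10.53 in H3RKO untreated, 10.42 and 10.53 after CFA and 10.39 and 10.42 after CFA+PTX. Mcm7 had the smallest range of all 45 genes, 0.17, and its highest value was in the WT CFA+PTX array (11.73). Among the other origin genes, Cdc45, which joins the helicase as it starts, ran from 7.15 to 7.42 untreated and from 6.93 to 7.16 injected, Mcm3 from 9.99 to 10.35 and from 9.98 to 10.04, Mcm4 from 10.20 to 10.31 and from 10.03 to 10.21, and Gins1, of the same starting complex, from 7.02 to 7.25 and from 6.97 to 7.13. All 4 overlapped, Cdc45 by 0.01 through H3RKO untreated replicate 2 alone.

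Genes of the polymerases and of nucleotide supply behaved unequally. Pcna, the clamp, had 12.48 and 12.54 in WT untreated, 12.56 and 12.53 in H3RKO untreated, 12.33 and 12.41 after CFA and 12.19 and 12.35 after CFA+PTX, so that both genotypes were lower after either injection. Pold1, the catalytic subunit of polymerase delta, had 10.01 ± 0.03 in WT untreated and 10.02 ± 0.01 in H3RKO untreated (SD, n = 2 each) and 10.07 and 10.02 after CFA, but 9.77 and 9.84 after CFA+PTX in WT and H3RKO. Prim1, the primase that lays the RNA primers, ran from 9.02 to 9.27 untreated and from 8.95 to 9.08 injected.

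Rrm2, the regulated subunit of ribonucleotide reductase, read on a probe set marked for possible cross-hybridization, had the widest range of all 45 genes, 0.93. Its log2 signal was 9.74 and 10.12 in WT untreated, 9.82 and 9.54 in H3RKO untreated, 9.24 and 9.19 after CFA in WT and H3RKO, and 9.36 and 9.48 after CFA+PTX. The groups did not overlap, but the gap between the lowest untreated and the highest injected array was small beside the spread of the untreated arrays. Rrm1, the large subunit, ran from 9.83 to 10.09 untreated and from 9.67 to 9.79 injected. Tk1, thymidine kinase of the salvage pathway, had 9.32 and 9.36 in WT untreated, 9.15 and 9.03 in H3RKO untreated, 9.08 in H3RKO CFA, 9.05 in WT CFA+PTX and 8.95 in H3RKO CFA+PTX, with WT CFA between the last 2 and H3RKO untreated replicate 2 inside the injected range.

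Tyms, thymidylate synthase, was dim, below the 25th percentile of mean signal, and had 5.69 and 5.54 in WT untreated, 5.34 and 5.28 in H3RKO untreated, 5.33 and 5.36 after CFA and 5.48 and 5.44 after CFA+PTX. Ccne1, the cyclin of S phase entry, had 7.83 and 7.89 in WT untreated, 7.92 and 7.68 in H3RKO untreated, 7.81 and 7.75 after CFA and 7.73 and 7.65 after CFA+PTX. Chek1, the kinase of the S phase checkpoint, ran from 6.02 to 6.50 untreated and from 6.09 to 6.17 injected. All 3 overlapped between untreated and injected arrays. Ranges over the 8 arrays lay between 0.17 and 0.93 for the 18 S phase genes, with a median of 0.37, against a median of 0.30 over all 12393 genes.

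Mitosis genes varied more, with ranges from 0.39 to 0.89 and a median of 0.68 over the 27 genes. Cdk1, the kinase that starts mitosis, had a log2 signal of 8.93 and 9.36 in WT untreated, 9.08 and 8.74 in H3RKO untreated, 8.47 and 8.61 after CFA in WT and H3RKO, and 8.47 and 8.63 after CFA+PTX. Injected and untreated arrays did not overlap. Its partner Ccnb2, cyclin B2, had 8.57 and 9.13 in WT untreated, 8.80 and 8.30 in H3RKO untreated, 8.33 and 8.25 after CFA and 8.50 and 8.36 after CFA+PTX. Ccna2, cyclin A2, which acts in S phase and G2, had 8.83 and 9.23, then 9.09 and 8.56, in the untreated WT and H3RKO arrays, 8.49 and 8.43 after CFA and 8.60 and 8.53 after CFA+PTX. For both cyclins the H3RKO untreated replicate 2 lay among the injected arrays and the other untreated arrays lay above them. Cks2, a small subunit bound to CDK1, was placed likewise, with 9.48 in that array, 9.77 to 10.14 in the other untreated arrays and 9.46 to 9.59 in the injected ones.

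The kinases and the chromosomal passenger complex, which corrects spindle attachment, had their highest and their lowest untreated values in the same arrays. Plk1, the Polo kinase, had 8.00 and 8.30 in WT untreated, 8.27 and 7.61 in H3RKO untreated, 7.65 and 7.74 after CFA and 7.84 and 7.77 after CFA+PTX, and its lowest value was thus in an untreated array. Aurkb, the kinase of the passenger complex, had 7.20 and 7.84 in WT untreated, 7.61 and 7.17 in H3RKO untreated, 7.21 and 7.15 after CFA and 7.25 and 7.04 after CFA+PTX. Birc5, survivin, of the same complex, had 8.88 and 9.41 in WT untreated, 9.12 and 8.62 in H3RKO untreated, 8.62 and 8.56 after CFA and 8.52 and 8.66 after CFA+PTX. In all 3 genes WT untreated replicate 2 was the highest array and H3RKO untreated replicate 2 the lowest untreated array. Aurka, the kinase of spindle poles, ran from 7.24 to 7.71 untreated and from 7.15 to 7.23 injected, a separation of 0.01 on the rounded values. Nek2, a centrosome kinase, ran from 5.62 to 6.10 and from 5.71 to 5.92, with overlap.

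Genes of the spindle, the exit from mitosis and the chromosomes followed. Kif11, a spindle motor, ran from 6.95 to 7.56 untreated and from 6.87 to 6.94 injected, and Prc1, which bundles spindle microtubules, from 8.05 to 8.51 and from 7.81 to 8.02. Cdc20, an activator of the anaphase-promoting complex, had 9.22 and 9.46 in WT untreated, 9.46 and 8.96 in H3RKO untreated, 9.07 and 8.94 after CFA and 9.08 and 9.10 after CFA+PTX. Top2a, the topoisomerase that untangles chromosomes, had 9.44 and 9.71 in WT untreated, 9.55 and 9.05 in H3RKO untreated, 9.04 and 8.98 after CFA and 9.19 and 9.16 after CFA+PTX. Kif11 and Prc1 kept untreated and injected arrays apart, Cdc20 and Top2a did not. Of the other spindle and cytokinesis genes, the motors Kif20a (6.57 to 7.31 untreated, 6.60 to 6.72 injected) and Kif23 (8.71 to 8.96, 8.56 to 8.71) and the microtubule proteins Tpx2 (7.47 to 8.09, 7.41 to 7.66), Nusap1 (8.49 to 8.91, 8.42 to 8.53) and Hmmr (6.82 to 7.47, 6.83 to 6.87) overlapped through H3RKO untreated replicate 2 alone. Ect2, which acts in cytokinesis, ran from 6.13 to 6.68 and from 6.00 to 6.18. The checkpoint genes Bub1 (7.07 to 7.71, 7.03 to 7.12) and Mad2l1 (9.30 to 9.62, 9.17 to 9.30) and Ube2c, of mitotic exit (8.87 to 9.61, 8.73 to 8.88), also overlapped through that array alone. Cenpa, the histone of centromeres, ran from 9.23 to 9.68 and from 9.28 to 9.47, and its CFA+PTX arrays (both 9.47) lay above WT untreated replicate 1. Mki67, the gene of the proliferation antigen Ki-67, had 9.89 and 10.15 in WT untreated, 9.94 and 9.56 in H3RKO untreated, 9.59 and 9.40 after CFA and 9.66 and 9.68 after CFA+PTX. Cenpe, a kinetochore motor, stood apart from its class. It was dim, with 3.95 to 4.25 untreated and 3.98 to 4.37 injected, and its lowest array was WT untreated replicate 2, in which 25 of the 27 mitosis genes were highest.

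**Figure D1:**
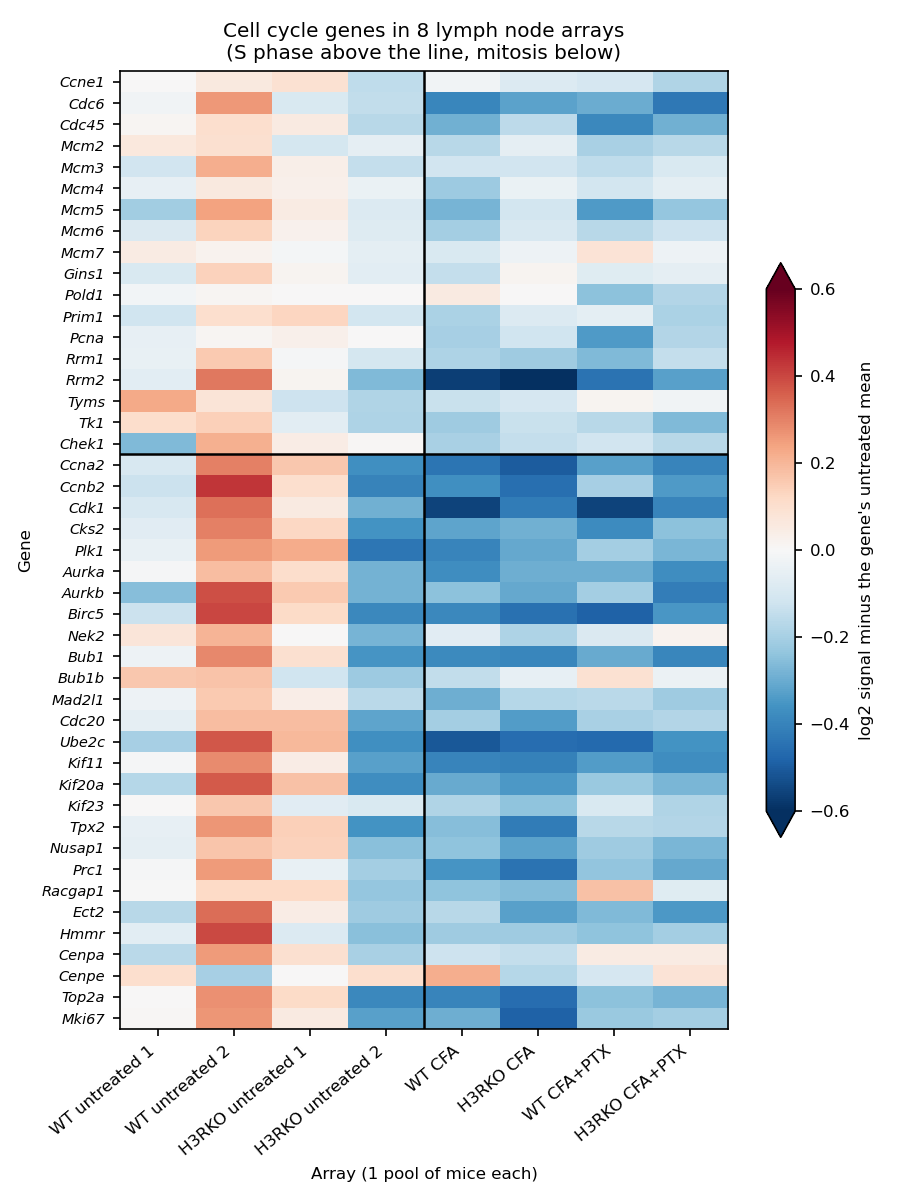
Log2 signal of 45 genes in 8 arrays, each gene minus its mean over the 4 untreated arrays, with S phase genes above the horizontal line and mitosis genes below it. Red cells gather in WT untreated replicate 2, and blue cells in the 4 injected arrays and in H3RKO untreated replicate 2.

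**Figure D2:**
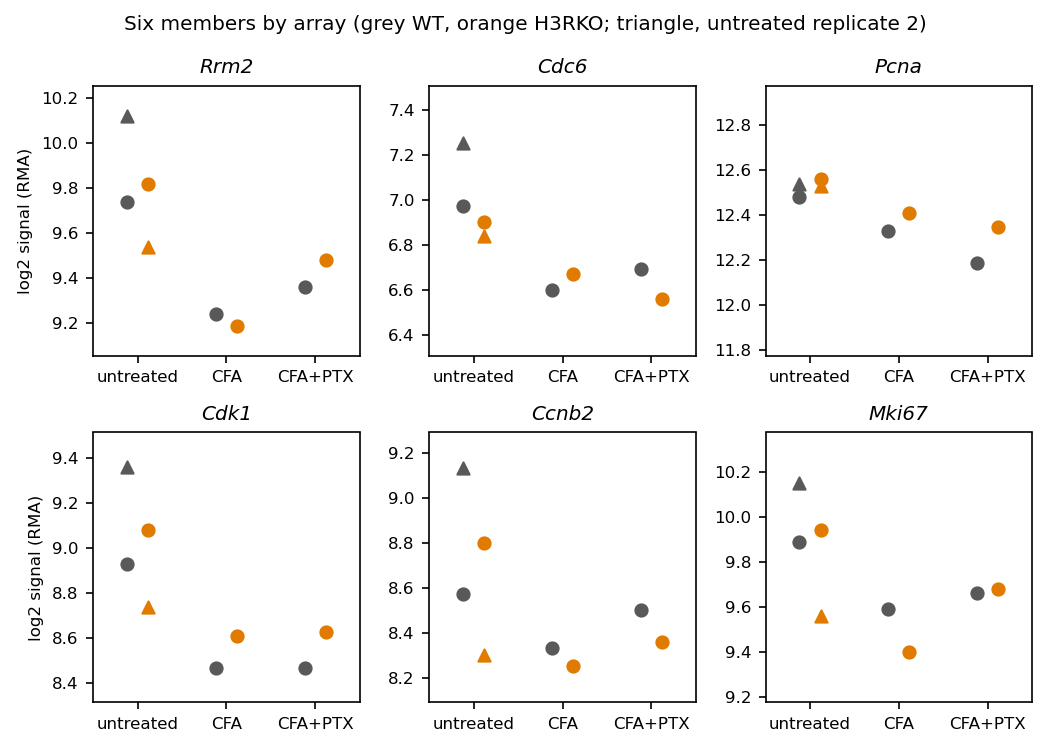
Log2 signal of Rrm2, Cdc6, Pcna, Cdk1, Ccnb2 and Mki67 in each array by treatment, each panel spanning the same height of log2 signal (grey WT, orange H3RKO, triangles untreated replicate 2). Injected and untreated arrays do not overlap for Rrm2, Cdc6, Pcna and Cdk1, and overlap for Ccnb2 and Mki67 through the H3RKO untreated replicate 2.

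Both classes were lower in injected than in untreated LN on average, and the mitosis class was spread as widely among the untreated arrays. With each gene set against its untreated mean, the S phase mean was −0.04 and 0.13 in WT untreated, 0.01 and −0.10 in H3RKO untreated, −0.20 in WT CFA, −0.13 in H3RKO CFA, −0.19 in WT CFA+PTX and −0.17 in H3RKO CFA+PTX. All injected arrays lay below all untreated arrays, but narrowly (highest injected −0.13, lowest untreated −0.10). By the class median these were −0.10 and −0.09, and over all own probe sets −0.13 and −0.12. The mean of 27 other replication and repair genes, described below, overlapped (−0.07 to 0.11 untreated, −0.12 to −0.05 injected). The mitosis mean was −0.06 and 0.26 in WT untreated, 0.08 and −0.28 in H3RKO untreated, −0.28 in WT CFA, −0.33 in H3RKO CFA, −0.22 in WT CFA+PTX and −0.24 in H3RKO CFA+PTX. Here the arrays overlapped, since H3RKO untreated replicate 2 was at or below 3 of the 4 injected arrays on these rounded values. The S phase mean minus the mitosis mean was 0.02 and −0.12 in WT untreated, −0.07 and 0.18 in H3RKO untreated, 0.09 and 0.19 after CFA and 0.03 and 0.07 after CFA+PTX. This difference overlapped between injected and untreated arrays, so the 6 groups were not told apart by the balance of the classes.

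Replicates of untreated LN differed in the same genes. WT untreated replicate 2 was above replicate 1 in 16 of 18 S phase genes, with a median of 0.16, and in 26 of 27 mitosis genes, with a median of 0.30. H3RKO untreated replicate 2 was below replicate 1 in 17 of 18 and 26 of 27, with medians of −0.09 and −0.39. Over all 12393 genes the medians of these differences were −0.02 and 0.00. The pooled SD of replicates was 0.101 for the S phase mean and 0.239 for the mitosis mean. Within each class the genes ran together over the 8 arrays. The Pearson correlation of a gene with the mean of the rest of its class had a median of 0.95 for mitosis, from −0.41 to 0.99, and 0.80 for S phase, from 0.24 to 0.96. These are descriptions over 8 arrays that share the groups and the normalization.

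**Figure D3:**
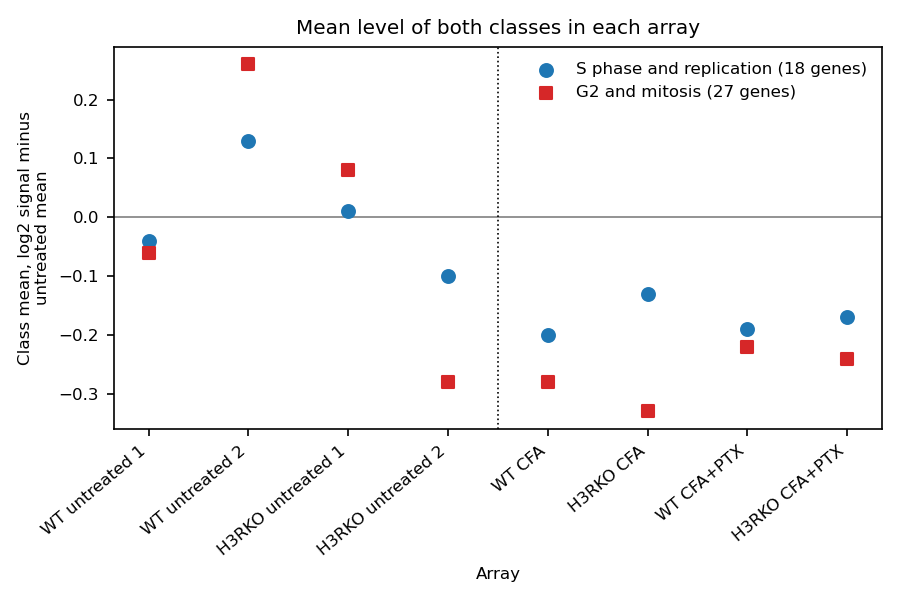
Mean of 18 S phase genes (circles) and of 27 mitosis genes (squares) in each array, in log2 signal minus each gene's untreated mean. The injected arrays lie between −0.20 and −0.13 for S phase and between −0.33 and −0.22 for mitosis, and H3RKO untreated replicate 2 is at −0.28 for mitosis.

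All 4 injected arrays were below all 4 untreated arrays in 9 of 45 genes, compared with 2.93% of all genes. These were Cdc6, Mcm6, Pcna, Rrm1 and Rrm2 of S phase and Cdk1, Aurka, Kif11 and Prc1 of mitosis. Without H3RKO untreated replicate 2, a comparison chosen after the data were seen, the count was 28 of 45, compared with 4.37% of all genes, and it held 8 S phase and 20 mitosis genes. Leaving out another untreated array gave 9 to 11, compared with 4.26% to 5.36% of all genes. Read within a genotype, the WT CFA array was below both WT untreated arrays in 15 of 18 S phase and 23 of 27 mitosis genes (35.3% of all genes), and the WT CFA+PTX array in 14 and 23 (33.4%). The H3RKO CFA array was below both H3RKO untreated arrays in 7 of 18 and 20 of 27 (24.0%), and the H3RKO CFA+PTX array in 14 and 11 (33.2%).

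CFA against untreated LN was fitted over both genotypes. The difference was negative in 26 of 27 mitosis genes, with a median of −0.32, and in 17 of 18 S phase genes, with a median of −0.14, while the median over all genes was 0.01. Rrm2 had the largest difference, −0.59 ± 0.14 (log2 ± SE, 2 CFA against 4 untreated arrays; limma adjusted p = 0.574), followed by Cdk1 (−0.49 ± 0.16; limma adjusted p = 0.758) and Ube2c, the ubiquitin-conjugating enzyme of the anaphase-promoting complex (−0.48 ± 0.20; limma adjusted p = 0.797). No gene of either class was called at an adjusted p under 0.05, and none of all genes was (0.0%). At an unadjusted p under 0.05, 13 mitosis and 3 S phase genes were lower, 16 of 45, against 3.31% of all genes. It changed with single arrays and was 25 without H3RKO untreated replicate 2, 10 without the H3RKO CFA array, 9 without WT untreated replicate 2, 7 without H3RKO untreated replicate 1 and 2 without the WT CFA array.

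CFA+PTX against untreated LN gave a like picture. Differences were negative in 24 of 27 mitosis genes (median −0.24) and 17 of 18 S phase genes (median −0.16), with a median of 0.01 over all genes. The largest were in Cdk1 (−0.48 ± 0.16; limma adjusted p = 0.318), Birc5 (−0.41 ± 0.19; limma adjusted p = 0.436) and Ube2c (−0.41 ± 0.20; limma adjusted p = 0.459). No gene was called, in the classes or among all genes (0.0%). At an unadjusted p under 0.05, 6 S phase and 5 mitosis genes were lower, 11 of 45, against 5.54% of all genes. The count was 24 without H3RKO untreated replicate 2, 18 without WT untreated replicate 1, 7 without WT untreated replicate 2, 6 without the H3RKO CFA+PTX array, 5 without H3RKO untreated replicate 1 and 0 without the WT CFA+PTX array. The CFA and CFA+PTX comparisons share the 4 untreated arrays. Other probe sets of a gene ran the opposite way to the one used for some of Nusap1, Top2a and Tyms after CFA and of Mcm4, Nusap1, Hmmr, Mcm7, Tyms and Chek1 after CFA+PTX.

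**Figure D4:**
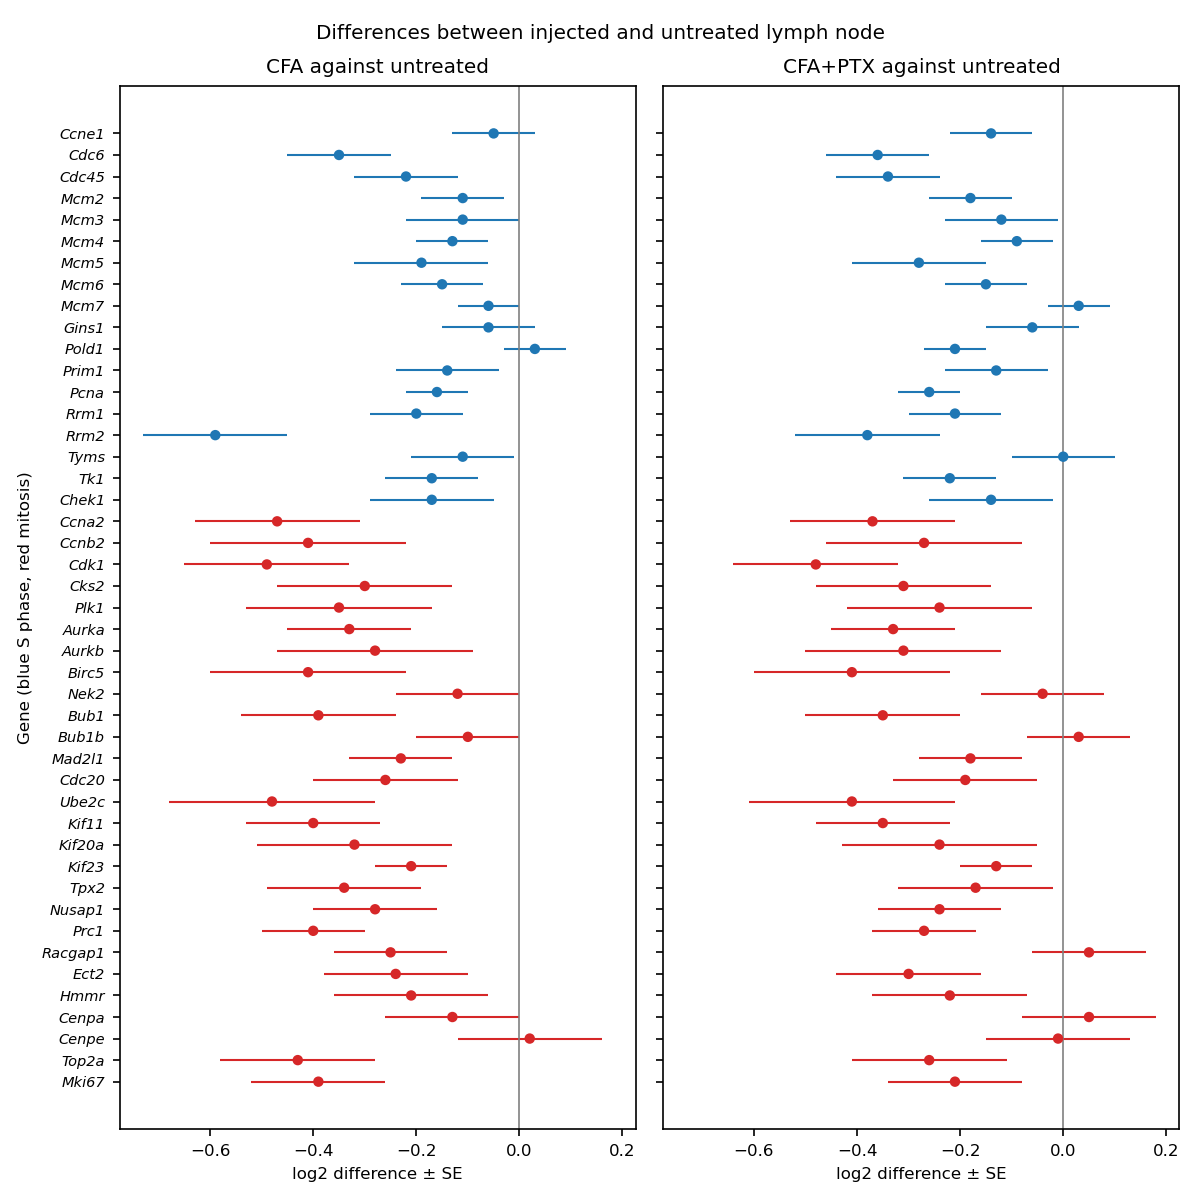
Log2 difference from untreated LN of 45 genes after CFA (left) and CFA+PTX (right), with the SE from limma as bars (2 injected and 4 untreated arrays per panel, both genotypes). Points lie left of 0 in 43 genes after CFA and in 41 after CFA+PTX, and none passed an adjusted p under 0.05.

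CFA+PTX and CFA alone were close. Of 18 S phase genes 11 were lower after CFA+PTX (median −0.01), and of 27 mitosis genes 7 were (median 0.07). None was called, nor was any of all genes (0.0%). At an unadjusted p under 0.05, 2 of 45 genes differed against 5.99% of all genes. They were Racgap1, which acts in cytokinesis (0.30 ± 0.12; limma adjusted p = 0.891), and Pold1 (−0.24 ± 0.07; limma adjusted p = 0.891). The next largest difference was that of Rrm2 (0.20 ± 0.16; limma adjusted p = 0.921). In Racgap1 the WT CFA+PTX array (8.99) was the highest of the 8.

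The genotypes were compared within each treatment in a model with 1 mean per group, and a gene met the criterion of the study when it differed more than 2-fold with an unadjusted p under 0.05. In untreated LN, 26 of 27 mitosis genes (median −0.20) and 14 of 18 S phase genes (median −0.06) were lower in the arrays labelled H3RKO. Of all 12393 genes 7086 were lower (median −0.02). Bub1b, a kinase-like protein of the spindle checkpoint, had 9.01 and 9.02 in WT and 8.73 and 8.63 in H3RKO arrays, a difference of −0.33 ± 0.09 (2 against 2 arrays; limma adjusted p = 0.916). Hmmr, which binds hyaluronan and microtubules, had 7.01 and 7.47 against 6.99 and 6.82 (−0.33 ± 0.17; limma adjusted p = 0.928), and Tyms differed by −0.30 ± 0.09 (limma adjusted p = 0.916). None of the 45 genes met the criterion, as 0.161% of all genes did. Both H3RKO arrays lay below both WT arrays in 10 of 45 genes, against 20.6% of all genes, so this arrangement was about as frequent in the list as on the whole array. At an unadjusted p under 0.05, 3 of 45 were lower, against 3.20% of all genes.

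The untreated difference turned on the spread within pairs. Without H3RKO untreated replicate 2 the median was −0.02 for mitosis and 0.00 for S phase, and without WT untreated replicate 2 it was −0.05 and 0.01. Without H3RKO untreated replicate 1 it was −0.42 and −0.12, and without WT untreated replicate 1 it was −0.39 and −0.17. The number of genes lower at an unadjusted p under 0.05 was 0, 7 and 9 without H3RKO untreated replicate 2, WT untreated replicate 1 and H3RKO untreated replicate 1.

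After CFA, 20 of 27 mitosis genes (median −0.06) and 5 of 18 S phase genes (median 0.07) were lower in the H3RKO array. Of all 12393 genes 4670 were lower (median 0.04). The S phase median was thus near that of the whole array. None met the criterion, against 0.145% of all genes. The largest difference was that of the dim Cenpe (−0.39 ± 0.18; limma adjusted p = 1.0), followed by Mcm4 (0.18 ± 0.13), Mcm5 (0.18 ± 0.23) and Mki67 (−0.18 ± 0.23). After CFA+PTX, 18 of 27 mitosis genes (median −0.04) and 7 of 18 S phase genes (median 0.04) were lower, and none met the criterion, against 0.347% of all genes. Racgap1 (−0.24 ± 0.19), Aurkb (−0.21 ± 0.35) and Cenpe (0.18 ± 0.18) had the largest differences. Of all 12393 genes 7232 were lower in the H3RKO array after CFA+PTX (median −0.03). Each of these comparisons rests on 1 array per genotype. Its SE comes from the untreated pairs, moderated by limma toward the spread of all probe sets.

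**Figure D5:**
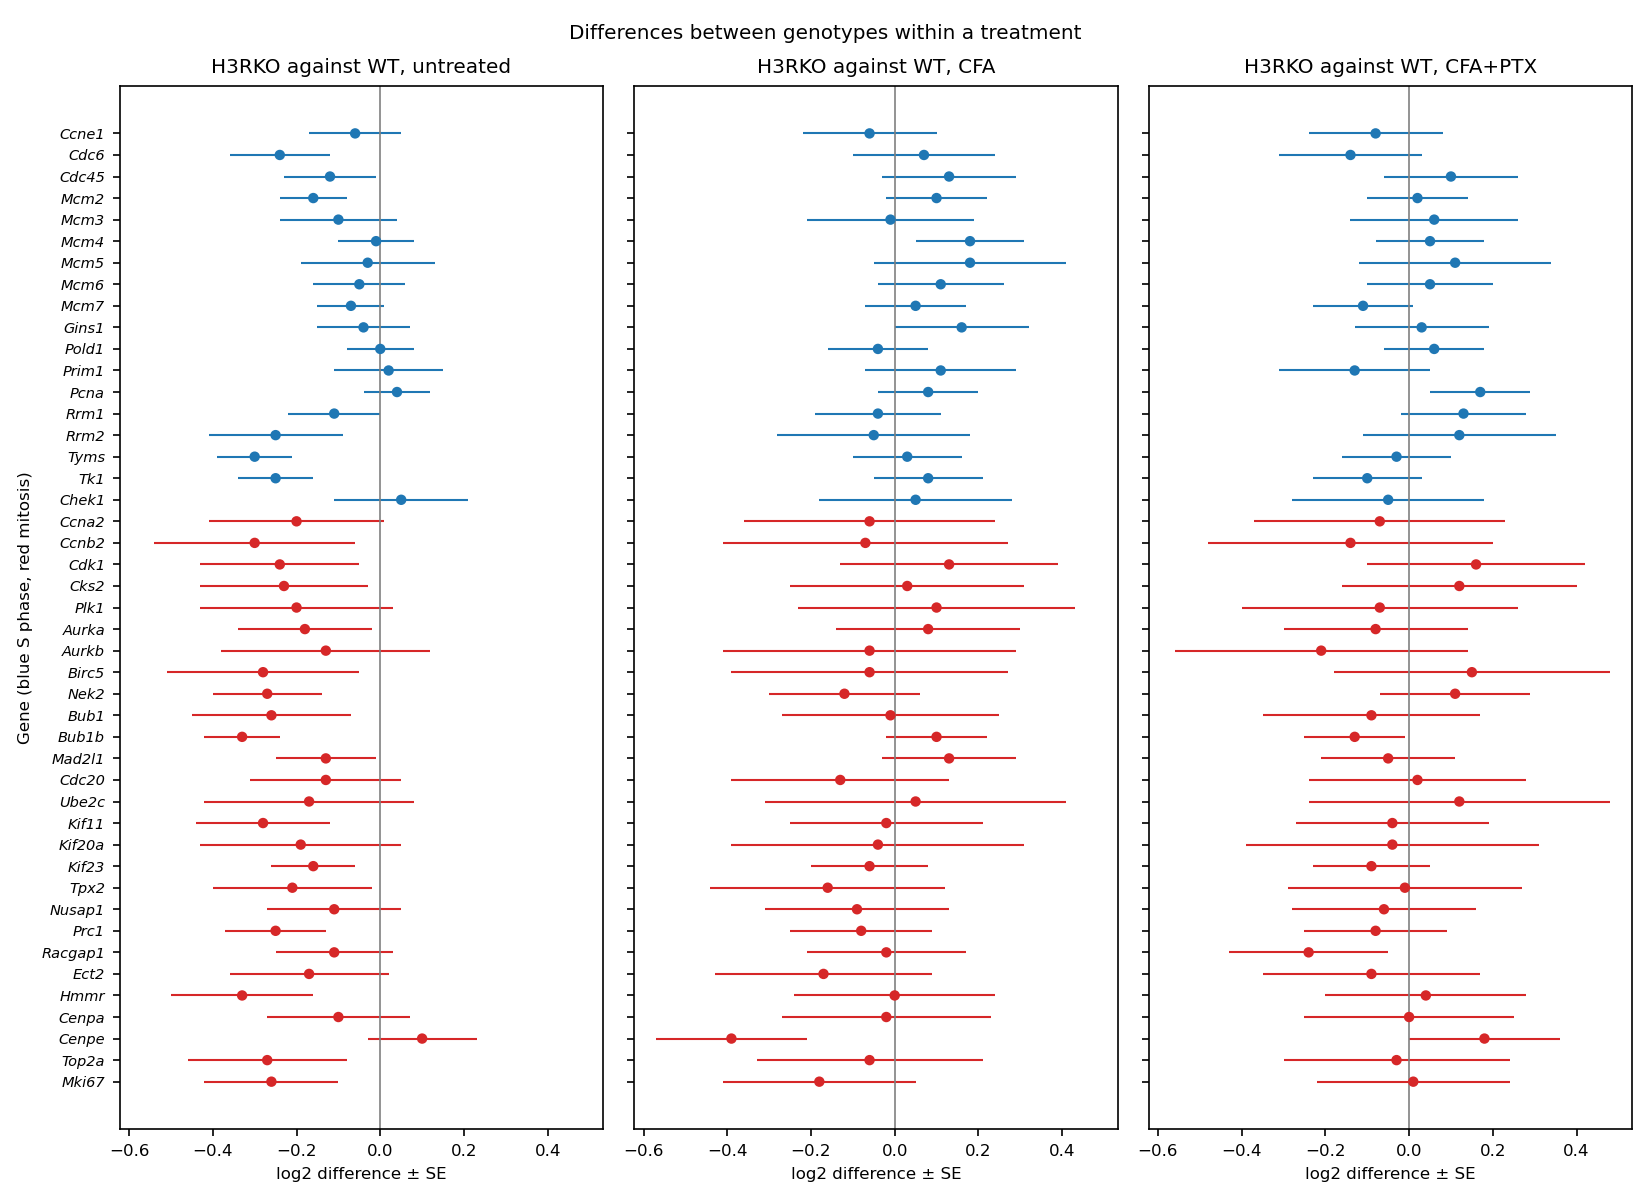
Log2 difference of H3RKO from WT for 45 genes in untreated LN (2 arrays per genotype), after CFA and after CFA+PTX (1 array per genotype each), with the SE from limma as bars. Mitosis genes, in red, lie left of 0 in 26 of 27 cases in untreated LN, in 20 after CFA and in 18 after CFA+PTX.

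Over all treatments, all 27 mitosis genes had a negative difference of H3RKO from WT (median −0.12), 1 of them 0.00 after rounding. So did 10 of 18 S phase genes (median −0.02) and 6689 of all 12393 genes (median −0.01). Ccnb2 (−0.20 ± 0.15), Prc1 (−0.17 ± 0.08), Bub1b (−0.17 ± 0.08) and Mki67 (−0.17 ± 0.11) had the largest differences, each with a limma adjusted p of 0.999. None was called, as none of all genes was (0.0%), and 0 of 45 were lower at an unadjusted p under 0.05, against 2.55% of all genes. With 1 array left out the median for mitosis ran from −0.18 to −0.04 with 1 array left out. The genotype difference after CFA minus that in untreated LN had a median of 0.16 for mitosis and 0.18 for S phase, and the same for CFA+PTX was 0.16 and 0.12. Over all genes the median was 0.05 for CFA and −0.01 for CFA+PTX. No interaction was called for any of the 45 genes or of all genes (0.0% in both). For CFA the largest were those of Cenpe (−0.49 ± 0.22; limma adjusted p = 0.892), Bub1b (0.44 ± 0.15; limma adjusted p = 0.848) and Cdk1 (0.37 ± 0.32). For CFA+PTX they were those of Birc5 (0.42 ± 0.40), Cdk1 (0.40 ± 0.32) and Nek2 (0.38 ± 0.22), each with a limma adjusted p of 1.0.

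Other genes of the cycle were read from lists of the same kind. Of 27 other mitotic genes, 26 were lower after CFA (median −0.20) and 23 after CFA+PTX (median −0.17). At an unadjusted p under 0.05, 8 of the 27 were lower after CFA, against 3.31% of all genes, and 3 of the 27 after CFA+PTX, against 5.54% of all genes. Cenpf, of the outer kinetochore, differed by −0.45 ± 0.12 after CFA, and Nuf2, of the NDC80 complex, by −0.47 ± 0.19 after CFA and −0.42 ± 0.19 after CFA+PTX. Of 27 other replication and repair genes, 23 were lower after CFA (median −0.08) and 24 after CFA+PTX (median −0.09), with Uhrf1, which keeps DNA methylation through replication, at −0.35 ± 0.12 and −0.41 ± 0.12. Of these 27 replication and repair genes, 1 was lower at an unadjusted p under 0.05 after CFA (3.31% of all genes). After CFA+PTX 4 were (5.54%), more than in the mitotic list. The median of the mitotic list was further from 0 than that of the replication list in both comparisons, as it was between the 2 classes of members.

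Upstream of them the lists differed. Among 8 G1 cyclins and their kinases, 6 were lower after either injection (medians −0.10 and −0.11). Set against untreated means, their list mean was −0.05 to 0.08 untreated and −0.19 to −0.11 injected, without overlap. Lower at an unadjusted p under 0.05 were 0 of the 8 after CFA (3.31% of all genes) and 3 after CFA+PTX (5.54%). Ccne2, cyclin E2, had 5.19 and 5.69 in WT untreated, 5.41 and 5.36 in H3RKO untreated, 4.99 and 5.23 after CFA and 4.78 and 4.97 after CFA+PTX, a difference of −0.54 ± 0.14 after CFA+PTX (limma adjusted p = 0.243). Ccnd1, cyclin D1, differed by −0.39 ± 0.11 after CFA+PTX. Of 14 E2F, Myb and Fox regulators, 7 were lower after CFA and 9 after CFA+PTX (medians −0.01 and −0.09). At an unadjusted p under 0.05, 1 of the 14 was lower after CFA (3.31% of all genes) and 2 after CFA+PTX (5.54%). Tfdp1 differed by −0.25 ± 0.09 and −0.27 ± 0.09, and E2f8 by −0.21 ± 0.09 and −0.28 ± 0.09. Mybl2, the B-Myb factor of mitotic genes, differed by −0.23 ± 0.13 and −0.24 ± 0.13. Of the same list 7 genes were higher after CFA and 5 after CFA+PTX. Of 15 CDK inhibitors and quiescence genes, 12 were higher after CFA and 9 after CFA+PTX, with medians of 0.04 and 0.05. No gene of these lists was called.

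The genes most like the mean of all members over the 8 arrays, outside the list, were Pclaf, a PCNA-binding factor (Pearson r = 0.981), Cdca5, sororin, which holds sister chromatids together (0.98), and Mybl2 (0.973). The next were Spam1 (0.968), Spc25, Ccnf and Rad51ap1 (each 0.967), Ttk (0.965), and Nuf2 and Depdc1a (each 0.964). Pclaf had 10.38 and 10.80 in WT untreated, 10.41 and 10.16 in H3RKO untreated, 10.07 and 10.03 after CFA and 10.13 and 10.14 after CFA+PTX. Spam1, a sperm hyaluronidase, was near the bottom of the signal, 3.05 to 3.26. All 10 were picked for this likeness among 12393 genes.

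Markers of other cells varied between the same arrays. With each gene set against its untreated mean, 8 T cell genes had a list mean of −0.13 to 0.16 untreated and −0.14 to −0.06 injected. For 7 B cell genes it was −0.02 to 0.04 and −0.22 to 0.09, and for 4 germinal centre B cell genes −0.08 to 0.12 and −0.22 to −0.03. For 6 adipocyte genes it was −0.26 to 0.15 untreated and −0.59 to −0.11 injected. WT untreated replicate 2, the highest array for the members, had the lowest T cell mean of the untreated arrays, and H3RKO untreated replicate 2 had −0.03. For 9 neutrophil genes it was −0.42 to −0.17 in the 4 arrays labelled WT and −0.05 to 0.55 in the 4 labelled H3RKO, and all 9 had a positive genotype difference over all treatments (median 0.60), 6 of them at an unadjusted p under 0.05, against 1.29% of all genes higher at that threshold. The T cell mean joined genes that differed in direction from untreated LN after CFA+PTX, 6 lower and 2 higher, none of them called. Cd8a differed by −0.50 ± 0.10 and Cd8b1 by −0.30 ± 0.08, against 0.16 ± 0.10 for Cd4. Plasma cell, activated T cell and erythroid lists stayed between −0.17 and 0.08 in every array, and 6 skeletal muscle genes ran from −0.45 to 0.75 with no separation of treatments. Salivary and lacrimal gland genes stood at −7.54 in WT CFA+PTX and −2.22 in WT untreated replicate 1, against 0.34 to 0.91 in the other 6 arrays. Immature granulocyte genes stood at 1.55 in H3RKO CFA+PTX, against −0.16 to 0.26 in the other 7 arrays. The 3′ minus 5′ log2 signal of the actin and GAPDH control probe sets was 0.164 to 0.307 in untreated and 0.302 to 0.439 in injected arrays, with 0.307 in WT untreated replicate 2. The part of these differences in the levels of the members was not tested.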

How the data were processed

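LN RNA was hybridized by the authors to 1-colour Affymetrix mouse arrays, 1 per pool. The deposited values are log2 signals that the authors background-corrected, normalized and summarized per probe set with RMA in Partek Genomic Suite. No earlier step was repeated. Signals ran from 2.42 to 14.40 (median 7.97). Of 22690 probe sets, 64 controls were set aside and 22626 were tested. The annotation used pairs 20380 with 1 gene, 691 with several and 1555 with none. Of the 45 measured genes, 24 have more than 1 probe set of their own. The probe sets used for Rrm2, Aurkb, Prc1, Mcm2, Mcm3, Mcm7 and Chek1 are marked for possible cross-hybridization. All columns of the values were mapped to samples.

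Treatment contrasts and the overall genotype difference were fitted with genotype and treatment as additive terms (limma 3.58.1, R 4.3.3, 4 residual degrees of freedom), called at a Benjamini-Hochberg adjusted p under 0.05 over all probe sets. Genotype differences within a treatment and interactions came from a model with a mean per group (2 residual degrees of freedom, which the untreated pairs supply). Counts over all genes use the brightest probe set of each. In the group means model the p-values rest on the spread between untreated pools. Those of the additive model also take in departures of the arrays from additive terms. In both, limma moderated each spread toward that of all probe sets (3.58 and 3.281 prior degrees of freedom). The number of arrays limits the precision. The script was tested on simulated data.

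The members and lists were chosen with earlier results of these data known. Values in each array were given for a preset selection of members. Those of other members, of Cd79a, Cd3e and Pax5 and of companion genes were chosen after they were seen. In each comparison the 3 largest differences were named where none was called, up to 4 genes per other list, and up to 10 genes most like the members. Alternatives were an unmoderated model, robust fitting with a trend, repeated quantile normalization, arrays centred on their medians, only probe sets above the 25th percentile of mean signal (5.85), no probe sets marked for cross-hybridization, the mean of a gene's probe sets, a replicate block, other thresholds and each array left out. Promoter windows (250 bases before to 50 after a start) came from RefSeq on GRCm38.p6. Plots used matplotlib 3.10.9 in Python 3.11.15.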

Additional observations from a re-analysis of the deposited data

How the results depend on the processing

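No member was called in any of the 9 comparisons under any alternative. The class medians of both treatment comparisons stayed negative throughout. The number of members lower after CFA at an unadjusted p under 0.05 (16) was 5 without moderation, 9 with arrays centred on their medians and 9 with the group means model, and ran from 2 to 25 with each array left out. For CFA+PTX (11) it was 4 without moderation and ran from 0 to 24. In untreated LN the genotype count (3) ran from 0 to 9 and the S phase median from −0.17 to 0.01. The median interaction with CFA ran from 0.03 to 0.26 for S phase and from −0.03 to 0.41 for mitosis, and that with CFA+PTX from 0.00 to 0.19 for S phase. The members with all injected below all untreated arrays (9, against 2.93% of all genes) numbered 9 to 28 with each untreated array left out (4.26% to 5.36%). This alternative was added after the data were seen. The cause of these shifts was not tested beyond the arrays named. The untreated arrays share only replicate numbers between genotypes, and the differences of replicate 2 from replicate 1 correlated at 0.123 over 22626 probe sets. With a replicate block the 3 counts were 11, 9 and 2, and no call changed. Among the members Cenpe and Tyms were dim, as was Ccne2 of the G1 list, and the 4 injected groups have no replicate.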
